A study of Mus musculus with 2 samples.

Results

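Respiratory complex I, the NADH:ubiquinone oxidoreductase of the inner mitochondrial membrane, was described here through 42 nuclear genes: 36 that carry the Nduf names of subunits (Ndufa4 and the acyl carrier gene Ndufab1 included) and 6 that encode assembly factors. The genes were taken by name. Each of the 42 names was found at exactly 1 locus of the deposited assembly through a match of the whole intron chain of at least 1 transcript to an annotated gene, and the 42 were read among 10650 loci kept for the comparison. The samples were cultured mesenchymal stem/progenitor cells of bone marrow from CD-1 mice aged 3 months, grown in DMEM with serum. One library came from cells labelled PPAR-flox, which carry the floxed gene of the nuclear receptor PPARg, and the other from cells labelled PPAR KO, called PPARg-deficient here. The labels do not say which recombinase was used, in which cells it acts, how many mice or cultures stand behind a library, or which exons were floxed. With 1 library per group there was no replicate, so no test was made and no difference below has a check between cultures.

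Complex I is the entry point of electrons from NADH into the respiratory chain. Its matrix arm holds the flavin and the iron-sulfur clusters that carry electrons to ubiquinone, and its membrane arm pumps protons. The enzyme is built from modules by dedicated assembly factors, and its central membrane subunits are encoded by mitochondrial DNA while all genes described here are nuclear. PPARg drives the formation of fat cells, a process in which mitochondria of stromal precursors are known to multiply.

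Expression was given as FPKM, the fragment number of a transcript divided by its length and by the fragments of the whole library, and all transcripts of a locus were added up. FPKM is a level per length, so genes can be set against each other. The targeted gene Pparg had 6.86 FPKM in floxed and 1.39 FPKM in deficient cells. With a pseudocount of 1 FPKM added to each value, the median kept locus was 1.81-fold higher in the deficient library, 0.86 on the log2 scale. That shift depends on the pseudocount, at 1.14 with 0.1 FPKM and 0.44 with 5 FPKM. Covered bases came to 1383 megabases in the floxed and 1728 megabases in the deficient library. A relative log2 fold below is log2 of deficient over floxed, each FPKM plus a pseudocount of 1, minus that 0.86. A gene is called higher or lower where it lay at least 2-fold from the median locus. Of 11 stromal markers 8 reached 1 FPKM in each library, with Col1a1, Col1a2, Ly6a and Vcam1 at 59.9 FPKM or more, while Thy1, Eng and Lepr stayed under 0.5 FPKM in both. Of 7 matched leukocyte and macrophage markers 1 reached 1 FPKM, Cd68 at 1.56 FPKM in the floxed and 2.10 FPKM in the deficient library. Csf1r was at 0 and 0.17 FPKM. Of 4 endothelial markers 0 reached 1 FPKM in either library. Ptprc, Adgre1, Itgam, Cd3e and Pecam1 were listed at 0 in both libraries. Adipocyte markers summed to 27.6 FPKM in the floxed and 12.9 FPKM in the deficient library (Adipoq at 9.87 and 0.10 FPKM), with Plin1, Lep, Ucp1 and Cidea listed at 0 in both, and the part of that shift in the values below was not tested. In a bulk library, fewer cells of a type and less RNA per cell cannot be told apart.

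Of the 42 genes more lay above the median gene in the deficient library than below it, by unequal amounts. Their relative log2 folds ran from -1.54 for Ndufa4 to 2.12 for Ndufs3, with a median of 0.30 and quartiles of -0.30 and 0.72. Of the 42, 29 lay above the median gene (69.0%, where all kept loci split evenly by construction) and 13 below it. That number was 23 with upper-quartile scaling, 22 with a pseudocount of 0.1 FPKM and 22 of 41 with a filter of 5 FPKM, so the excess over an even split was small in those settings. By the call rule 8 genes were higher (19.0%), where 10.3% of all kept loci were, and 4 genes were lower (9.52%), where 11.6% of all kept loci were. The 8 higher genes were Ndufs3, Ndufa10, Ndufb2, Ndufa8, Ndufs5, Ndufb8, Ndufs7 and Ndufb6, and the 4 lower genes were Ndufa4, Ndufa7, Ndufa1 and Ndufc1. As deposited, with the shift of the median locus kept in, the call of higher took in 25 of the 42 (59.5%), beside 42.0% of all kept loci, and 0 were at least 2-fold lower, beside 4.57%. In that scaling 38 of the 42 genes were higher in the deficient library, and the 4 lower genes of the relative scale were the 4 that had less FPKM there. So were 55 of 59 nuclear genes of complexes II to V and 68 of 71 genes of mitochondrial ribosomal proteins. The median kept locus was itself 1.81-fold higher as deposited, and the share of all kept loci above 0 was not counted. The median over the 42 moved between 0.03 and 0.61 with the pseudocount, so its distance from the median gene rests on that choice.

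**Figure D1:**
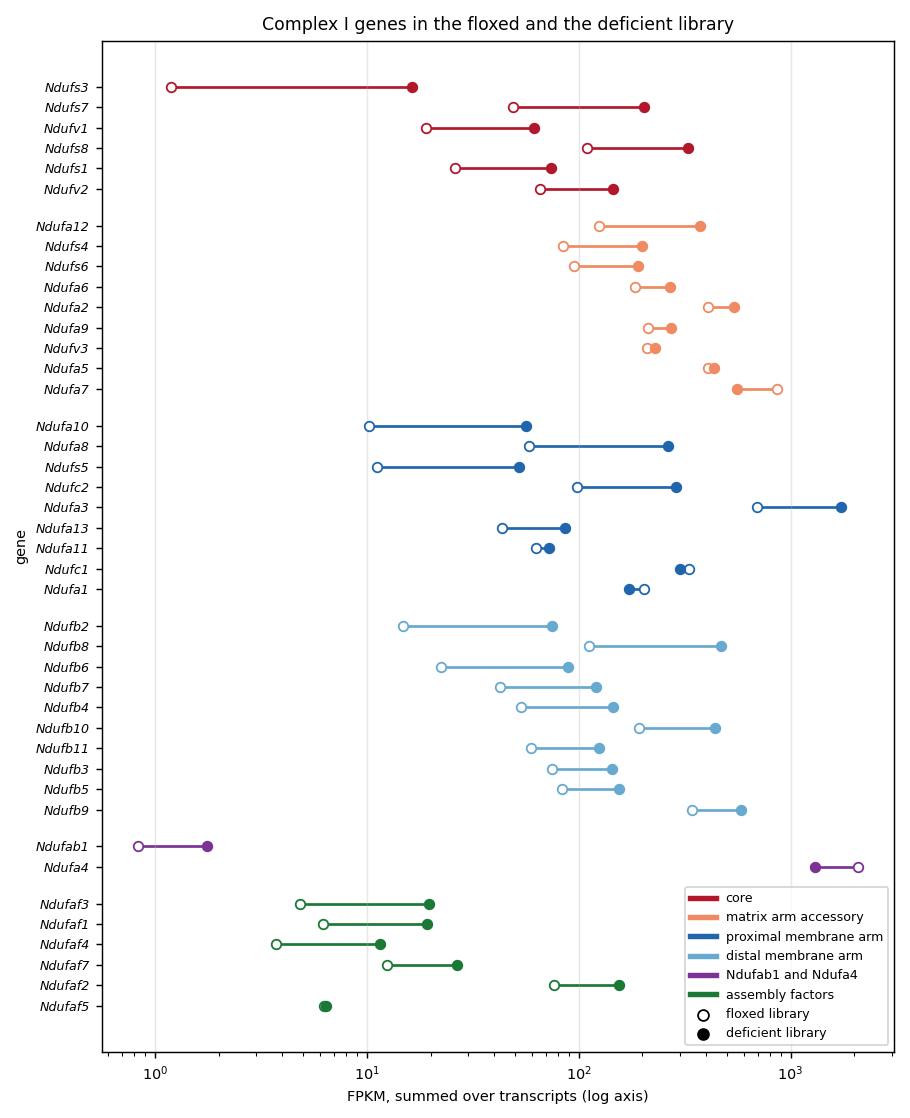
FPKM of the 42 complex I genes on a log axis, 1 row per gene, grouped by place in the enzyme; open circles are the floxed library and filled circles the deficient library, 1 library each, without error bars. Most filled circles lie to the right of the open ones, with Ndufs3 the widest pair (1.20 and 16.4 FPKM), and the order is turned for Ndufa7, Ndufc1, Ndufa1 and Ndufa4.

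The deposited files give a lower and an upper bound for each transcript's FPKM, which describe the estimate within a library and not the spread between cultures. For the major transcript of each gene, the one with most FPKM over both libraries, these bounds did not overlap between libraries in 36 of the 42 genes (85.7%), beside 72.4% of all kept loci. Of the 42, 34 were without overlap and higher in the deficient library as deposited (beside 64.0% of all kept loci), and Ndufa4 and Ndufa7 were lower. With both the bounds and the 2-fold rule on the relative scale, 8 genes were higher, beside 10.1% of loci, and 2 lower, beside 7.96%. The bounds overlapped for Ndufab1, Ndufv3, Ndufa5, Ndufaf5, Ndufc1 and Ndufa1. All 4 calls of lower rest on the shift of the median gene, as 0 of the 42 were at least 2-fold lower as deposited. For Ndufc1 and Ndufa1 the overlap of bounds is a further limit. Ndufc1, at a relative log2 fold of -1.0001, lay on the threshold itself, with Ndufaf3 at 0.98 just inside the opposite one.

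The core subunits of the matrix arm, which bind NADH and carry electrons, all lay above the median gene. Their relative median was 0.75 over 6 genes, with 2 of the 6 called higher and 0 lower. Ndufs3, a core subunit beside the ubiquinone site, was at 1.20 FPKM (bounds 0.35 to 2.05) with the floxed gene and 16.4 FPKM in deficient cells (13.3 to 19.4), a relative log2 fold of 2.12. It lies on chromosome 2 from 90734793 to 90744878 (mm9, minus strand) and has 1 transcript of 7 exons. The deficient library was thus the high one, although 16.4 FPKM was still the lowest level of any core subunit there. An annotated copy elsewhere, Gm12251, matches 98.6% of bases over the aligned coding sequence of Ndufs3, so reads could be shared between them and the value is uncertain.

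Ndufs7, which holds the last iron-sulfur cluster before ubiquinone, was at 49.1 FPKM (42.9 to 55.4) with the floxed gene and 204 FPKM in deficient cells (192 to 217), a relative log2 fold of 1.18. Ndufv1, which binds NADH and the flavin, was at 18.9 and 61.2 FPKM (0.78 relative), and its major transcript had bounds of 12.2 to 17.1 in the floxed and 54.9 to 63.6 FPKM in the deficient library. Ndufs8, another iron-sulfur subunit, was at 109.7 and 327 FPKM (0.71), with bounds of 86.3 to 103.8 and 269 to 298 FPKM for its major transcript. All of these were higher in the deficient library by more than the median gene, and of Ndufs7, Ndufv1 and Ndufs8 only Ndufs7 reached 2-fold. Ndufs1, the large iron-sulfur subunit of the NADH module, was at 26.01 and 73.9 FPKM (0.61), with bounds of 14.4 to 18.3 and 34.8 to 40.9 FPKM for its major transcript. Ndufv2, the partner of Ndufv1 with a further cluster, was at 65.9 and 146 FPKM (0.28), the closest of the core genes to the median gene, and its major transcript had bounds of 52.6 to 62.0 and 119 to 132 FPKM. Under each of the 11 alternatives of scaling, pseudocount, filter, transcript choice, naming and copies, every core gene counted there was above 0, while the number called higher ran from 1 to 6.

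Accessory subunits of the matrix arm lay mostly below the median gene. Their relative median was -0.46 over 9 genes, 3 of the 9 lay above the median gene, 0 were called higher and Ndufa7 was called lower. Ndufa7 was at 859 FPKM with the floxed gene and 559 FPKM in deficient cells, a relative log2 fold of -1.48, and its major transcript had bounds of 772 to 844 and 458 to 515 FPKM. The floxed library was the high one for this gene alone among the 9. Ndufa5 was at 406 and 434 FPKM (-0.76), Ndufv3 at 210.2 and 228 FPKM (-0.74), and Ndufa9, a nucleotide-binding subunit at the joint of the arms, at 212 and 272 FPKM (-0.50). Ndufa2, which has a thioredoxin-like fold, was at 407 and 538 FPKM (-0.46), and Ndufa6, which binds the acyl carrier protein, at 184 and 269 FPKM (-0.31). On the other side stood Ndufa12 at 124 and 375 FPKM (0.73), Ndufs4 at 84.5 and 199.8 FPKM (0.37), whose loss in mice is a common model of mitochondrial disease, and the zinc-binding Ndufs6 at 95.1 and 189.9 FPKM (0.13). Ndufa12 has an annotated copy, Gm15920, with 99.5% identity over the aligned coding sequence, so its value is uncertain. As deposited the group median was 0.40, with 8 of 9 genes above 0, so its place below the median gene depends on the centring.

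The proximal part of the membrane arm held genes called in both directions. Of its 9 genes 3 were called higher and 2 lower, with a relative median of 0.47. Ndufa10, a subunit of the ND2 module with a nucleoside kinase fold, was at 10.3 and 56.4 FPKM (1.49), with bounds of 2.47 to 5.78 and 11.2 to 31.6 FPKM for its major transcript. Ndufa8, a cysteine-rich subunit on the intermembrane face, was at 58.3 and 264 FPKM (1.30). Its major transcript had bounds of 45.1 to 58.8 and 196 to 224 FPKM. Ndufs5, also on the intermembrane face, was at 11.2 and 52.5 FPKM (1.28). Its major transcript had bounds of 6.96 to 15.4 and 37.8 to 55.7 FPKM. The deficient library was several-fold the higher one in each of Ndufa10, Ndufa8 and Ndufs5, with a caveat for Ndufs5, whose annotated copy BC002163 matches 99.4% of bases over the aligned coding sequence. Ndufc2 was at 97.9 and 288 FPKM (0.69), and Ndufa13, also known as GRIM-19, at 43.4 and 86.1 FPKM (0.11). Ndufa3 was the most abundant gene of the group, at 691 and 1735 FPKM (0.47), which made it the most abundant of all 42 in the deficient library. That rank rests on a transcript of 218 nt at 900 FPKM. The longer transcripts of Ndufa3 held 602 and 234 FPKM in the deficient library, where Ndufa4 had 1301 FPKM. Below the median gene stood Ndufa1, the small X-linked subunit, with a relative log2 fold of -1.10. Ndufa1 was at 204 FPKM (185 to 222) in the floxed and 172 FPKM (155 to 190) in the deficient library. Ndufc1, the partner of Ndufc2 in the membrane, was at 333 FPKM (307 to 360) and 302 FPKM (277 to 327). Ndufa11 was at 63.0 and 72.4 FPKM (-0.66).

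The distal part of the membrane arm, formed by the Ndufb subunits around the outer proton channels, lay above the median gene in 9 of 10 genes. Its relative median was 0.45, with 3 called higher and 0 lower. Ndufb8, often used as the antibody target that reports assembled complex I, was at 111 FPKM (101 to 122) in the floxed and 470.2 FPKM (449 to 492) in the deficient library, a relative log2 fold of 1.21. Ndufb2 was at 14.9 and 74.9 FPKM (1.40), with bounds of 5.12 to 14.5 and 54.1 to 76.6 FPKM for its major transcript. Ndufb6 was at 22.4 and 88.9 FPKM (1.09). Each of these was higher in the deficient library, over a wide range of levels. The other Ndufb genes were Ndufb7 (42.5 and 120.3 FPKM, 0.62), Ndufb4 (53.2 and 145 FPKM, 0.57), Ndufb10 (192 and 438 FPKM, 0.33), Ndufb11 (59.7 and 125 FPKM, 0.19), Ndufb3 (74.8 and 144 FPKM, 0.07), Ndufb5 (83.5 and 156 FPKM, 0.03) and Ndufb9 (341 and 583 FPKM, -0.09). None of these 7 reached 2-fold from the median gene, and 6 of them counted as above it. Ndufb3, Ndufb4 and Ndufb11 have annotated copies at 96.8% identity or more over the aligned coding sequence, which leaves their values uncertain.

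Ndufa4 and Ndufab1 stand somewhat apart by function. Ndufa4, named for complex I but since assigned to cytochrome c oxidase, was the most abundant of the 42 genes in the floxed library, at 2089.9 FPKM (2033 to 2146), and had 1301 FPKM (1257 to 1345) in deficient cells. Its relative log2 fold of -1.54 was the lowest of the 42, and its bounds did not overlap. It lies on chromosome 6 from 11850373 to 11857446 (mm9, minus strand), with 1 transcript of 4 exons. Ndufab1, the mitochondrial acyl carrier protein that also serves fatty acid and iron-sulfur synthesis, was the least abundant, at 0.83 FPKM in the floxed and 1.75 FPKM in the deficient library (-0.27). It has 2 annotated copies, Gm4459 and Ndufab1-ps, with up to 99.8% identity over the aligned coding sequence, so its low level is uncertain. Ndufab1 was also the one gene of the 42 that passed the filter of 1 FPKM through the deficient library alone.

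Assembly factors, which guide the modules together and are not part of the finished enzyme, were expressed at lower levels than most subunits. Their median was 6.24 FPKM in the floxed and 19.5 FPKM in the deficient library, against 70.3 and 155 FPKM over all 42 genes. Of the 6, 5 lay above the median gene, with a group median of 0.36, and 0 were called higher or lower. Ndufaf3 was at 4.82 and 19.8 FPKM (0.98), with bounds of 3.20 to 6.39 and 14.9 to 21.1 FPKM for its major transcript, and its partner in building the ubiquinone module, Ndufaf4, was at 3.73 FPKM (3.04 to 4.43) and 11.6 FPKM (10.4 to 12.8), 0.55 relative. Ndufaf1, which acts early on the membrane arm, was at 6.19 and 19.2 FPKM (0.63). Its major transcript had bounds of 2.13 to 4.73 and 9.75 to 14.4 FPKM. Ndufaf3, Ndufaf4 and Ndufaf1 were higher in the deficient library, each short of 2-fold relative to the median gene. Ndufaf7, a methyltransferase of the matrix, was at 12.5 and 26.6 FPKM (0.18). Its major transcript had bounds of 10.5 to 13.8 and 22.9 to 27.6 FPKM. Ndufaf2, a relative of Ndufa12 that acts late in assembly, was at 76.7 FPKM (68.3 to 85.1) and 155 FPKM (143 to 167), 0.15 relative and far above the other factors. Ndufaf5, which hydroxylates Ndufs7, stood at nearly the same FPKM in both libraries, 6.29 (5.23 to 7.34) and 6.39 (5.32 to 7.46), a relative log2 fold of -0.84. Its target Ndufs7 was 4.16-fold higher in the deficient library as deposited.

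**Figure D2:**
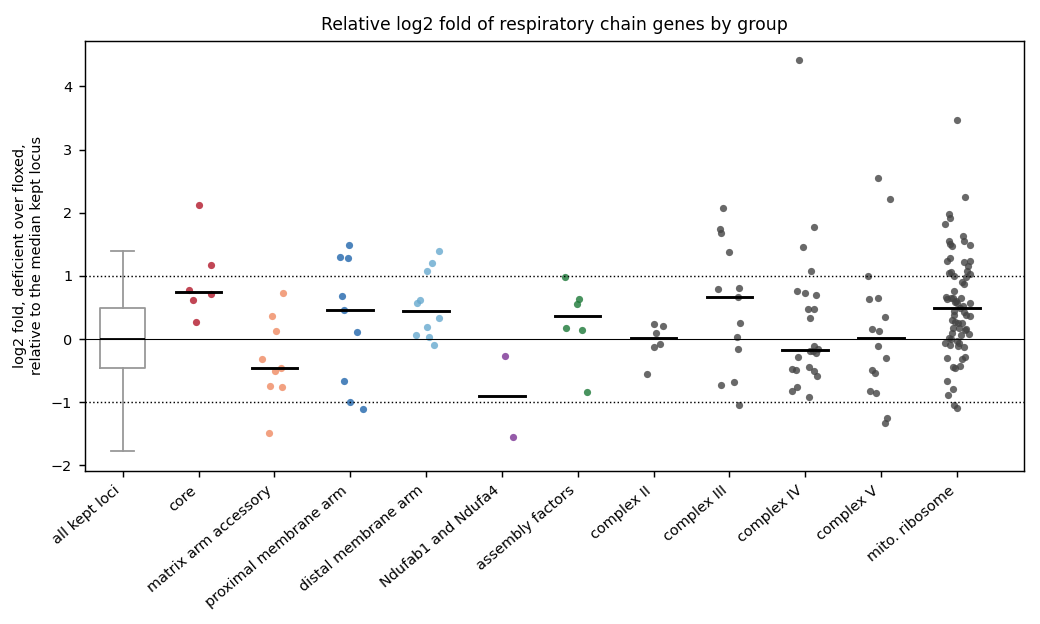
Relative log2 fold (deficient over floxed, minus the median kept locus) of single genes as points, by group, with a black bar at each group median; the grey box gives quartiles and the 5th and 95th percentiles of all 10650 kept loci, and dotted lines mark 2-fold. All 6 core genes lie above 0, and 6 of 9 accessory genes of the matrix arm lie below it.

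Levels of the 42 genes were more alike in the deficient library than in the floxed one. The upper quartile of FPKM was 9.59 times the lower quartile in the floxed library (19.8 and 189.8 FPKM) and 4.10 times in the deficient library (72.7 and 298 FPKM). Over all kept loci the same ratio was 11.1 and 11.4. Without Ndufab1 and Ndufs3, the lowest of the 42 in the floxed library, the ratio was 7.76 and 4.13. The number of the 42 genes at 50 FPKM or more was 26 in the floxed and 35 in the deficient library. The narrowing goes with a fold that was smaller for abundant genes. Across the 42, mean log2 level and relative log2 fold were related with r = -0.45 (Pearson) and rho = -0.46 (Spearman, n = 42), against 0.04 and 0.15 over all 10650 kept loci. These are correlations across genes of the same pair of libraries, which are not independent replicates, and the level enters both quantities. The order of the 42 by level was largely shared by the libraries, with a Spearman rho of 0.94.

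**Figure D3:**
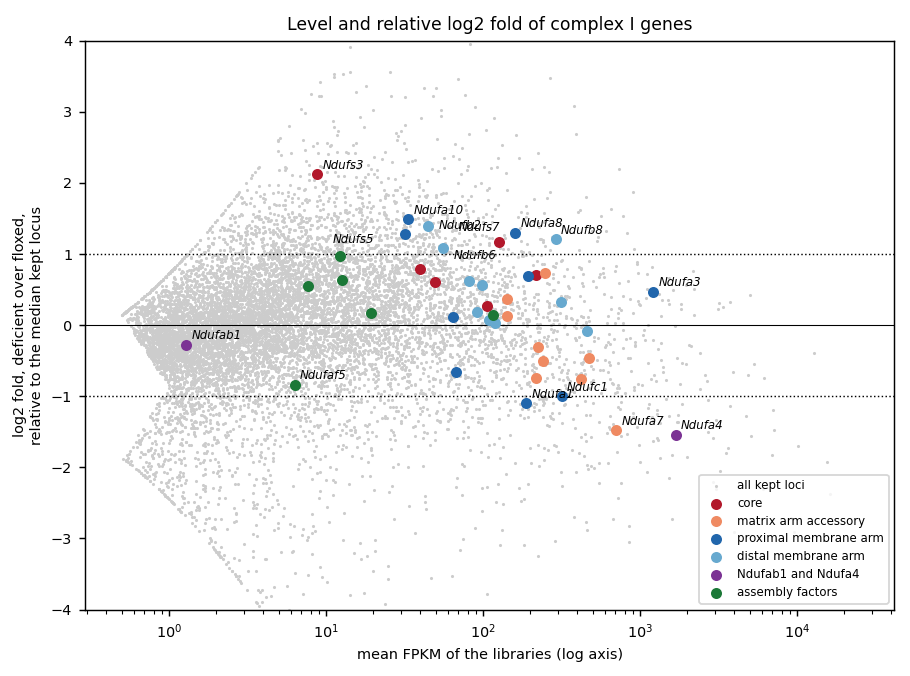
Mean FPKM of the libraries (log axis) against relative log2 fold for all kept loci (grey) and the 42 complex I genes (coloured by place in the enzyme), with dotted lines at 2-fold; 82 loci lie outside the plotted range of 4. The complex I genes slope downward from Ndufs3 and Ndufa10 to Ndufa7 and Ndufa4.

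Set beside kept loci of like level, the folds of the 42 were nearest to other genes among the most abundant. Of 14 complex I genes with a mean of at least 200 FPKM, the relative median was -0.39, and it was -0.38 over all 528 such loci. Between 50 and 200 FPKM the 16 complex I genes had a median of 0.23, against 0.12 over 956 loci. Between 10 and 50 FPKM the 8 complex I genes, among them Ndufa10, Ndufs5, Ndufb2 and Ndufs1, all lay above the median gene, with a median of 0.88, against 0.29 over 2308 loci. Of those 8 genes 3 were called higher (Ndufa10, Ndufs5 and Ndufb2), where 18.8% of loci in that range were. Between 50 and 200 FPKM 3 of the 16 were called higher, beside 16.3% of loci. At 200 FPKM or more 1 of the 14 was, beside 7.77%. Below 10 FPKM the 4 complex I genes had a median of 0.14, against -0.07 over 6858 loci, and 1 was called higher, beside 6.74%. The length of the longest transcript showed little relation to the fold across the 42 (Pearson r 0.05, Spearman rho 0.13, n = 42), and over all kept loci the values were -0.09 and -0.16. Over all kept loci, however, shorter loci were called higher more often. Of the 21 genes with 300 to 700 nt 4 were called higher (19.0%), beside 19.2% of all loci of that length. Of the 12 with 700 to 1500 nt 4 were called higher, beside 15.4%, and of the 9 longer ones 0, beside 7.97%. The part of transcript length in the share called higher was not tested.

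All 42 together took 1.18% of the FPKM of kept loci in the floxed library and 1.54% in the deficient library, as 7561 and 10808 summed FPKM. Without Ndufa4 the shares were 0.85% and 1.36%. A few very abundant loci weigh on these shares. When the 100 most abundant loci of each library were left out, Ndufa3 and Ndufa4 among them, the shares were 1.93% and 1.92%.

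Several genes held more than 1 transcript in the assembly, 24 of the 42, and in some the libraries differed in which transcript held the FPKM. Ndufa5 had a transcript of 428 nt at 122 FPKM (102 to 141) in the floxed library that was near 0 in the deficient library (upper bound 0.96). Its transcript of 533 nt went the other way, from near 0 (upper bound 0.67) to 145 FPKM (128 to 162). Its major transcript of 549 nt was at 284 FPKM (263 to 305) in the floxed and 289 FPKM (268 to 311) in the deficient library. The gene total therefore hid an exchange between a transcript of 4 exons and one of 5 exons that starts elsewhere and has the same 3′ end. In Ndufs1 the transcript of 2823 nt was at 5.51 FPKM (4.26 to 6.77), 21.2% of the gene, in the floxed library and at 31.4 FPKM (28.6 to 34.1), 42.4%, in the deficient library. The Ndufs1 transcript of 2769 nt was at 4.15 FPKM (3.02 to 5.27) in the floxed library and near 0 (upper bound 0.08) in the deficient library. In Ndufa10 the transcript of 1064 nt was near 0 in the floxed library (upper bound 0.26) and at 12.8 FPKM (9.49 to 16.1) in the deficient library. In Ndufa3 the transcript of 218 nt was at 286 FPKM (212 to 360) and 900 FPKM (770 to 1029), so a short transcript carried 41.4% and 51.9% of that gene. The split of reads among transcripts is an estimate made within each library, and no test of these splits was possible.

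**Figure D4:**
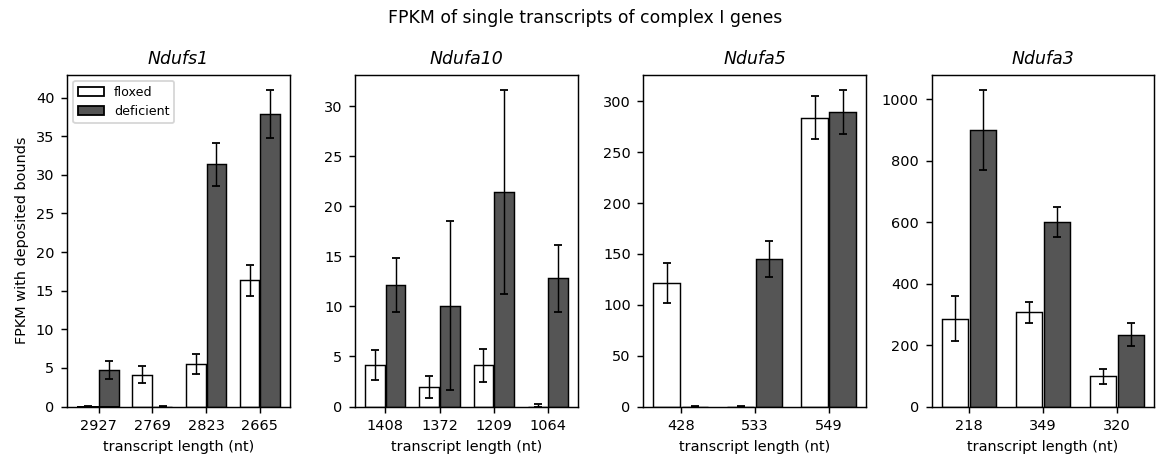
FPKM of each transcript of 4 complex I genes, named by its length in nt; white bars are the floxed library, grey bars the deficient library, and error bars the deposited lower and upper bounds within a library. In Ndufa5 the transcripts of 428 and 533 nt exchange places between the libraries, while the one of 549 nt stays near 284 to 289 FPKM.

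Promoter sequences were read from RefSeq (GRCm38.p6), which held the window from 250 bases before to 50 bases after the start for 39 of the 42 genes, and not for Ndufa2, Ndufb9 and Ndufs1. Letters of 7 motifs were searched on both strands: the ETS motif bound by GABPA as CCGGAAG, SP1 as GGGCGG, the E-box as CACGTG, the estrogen-related receptor ERRa as TCAAGGTCA, and the motifs of NRF1, YY1 and the PPAR response element. NRF1 and GABPA are known regulators of respiratory chain genes. A gene counted as holding the letters where any of its windows did, while shares of all windows count single windows. The 39 genes had 41 windows. Windows per gene were not counted for other kept genes, and their part in the shares of genes below was not tested. The NRF1 letters were in 9 of the 39 (23.1%), in 12.8% of 6817 kept genes with a window and in 4.60% of all 32851 windows. They were also in 12 of 47 genes of complexes II to V (25.5%) and 12 of 63 of mitochondrial ribosomal proteins (19.0%). The ETS letters were in 5 of 39 (12.8%), beside 23.2% of kept genes and 8.86% of all windows. In complexes II to V they were in 20 of 47 genes (42.6%), and in mitochondrial ribosomal proteins in 23 of 63 (36.5%). The YY1 letters were in 4 of 39 (10.3%, beside 2.88% of kept genes and 0.85% of windows), those of SP1 in 20 (51.3%, beside 70.03% and 35.7%) and the E-box in 2 (5.13%, beside 12.6% and 7.15%). For complexes II to V the shares were 6.38% (YY1), 55.3% (SP1) and 12.8% (E-box). For mitochondrial ribosomal proteins they were 7.94%, 50.8% and 7.94%. The ERRa letters were in 0 of the 39, beside 0.28% of kept genes and 0.42% of windows, and the PPAR response element in 0, beside 0.04% of both. The 5 genes with the ETS letters, Ndufs3, Ndufb6, Ndufb7, Ndufaf1 and Ndufs8, had relative log2 folds of 0.62 to 2.12 with a median of 0.71, and the other 34 ran from -1.54 to 1.49 with a median of 0.18. The 9 genes with the NRF1 letters ran from -0.84 to 1.30, with a median of 0.13 beside 0.35 for the other 30. Over kept genes the medians with and without the ETS letters were 0.08 and -0.01. A run of letters is a description of the window and not a bound site, and the split by motif was looked at after the folds were known.

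The 250 bases before the start are shown for 4 genes, 5′ to 3′ on the strand of the gene, to set the highest gene (Ndufs3), a higher gene with the NRF1 letters (Ndufa8) and another with the ETS letters (Ndufb6) beside the lowest (Ndufa4). Capitals mark the letters found: SP1 and ETS in Ndufs3 and Ndufb6, SP1 and NRF1 in Ndufa8, on either strand. In Ndufs3 the ETS letters overlap the nearer SP1 letters, and Ndufa4 holds none of the 7 motifs. The 4 genes were picked to show letters and do not stand for the others. Ndufb2, also called higher, held none of the 7 motifs in these 250 bases, while Ndufa1, called lower, held the SP1 letters.
Ndufs3: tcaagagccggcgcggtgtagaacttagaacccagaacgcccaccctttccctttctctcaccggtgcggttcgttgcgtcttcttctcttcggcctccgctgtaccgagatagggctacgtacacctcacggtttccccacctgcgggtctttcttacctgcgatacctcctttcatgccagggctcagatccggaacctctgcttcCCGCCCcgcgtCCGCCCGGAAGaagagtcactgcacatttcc
Ndufa8: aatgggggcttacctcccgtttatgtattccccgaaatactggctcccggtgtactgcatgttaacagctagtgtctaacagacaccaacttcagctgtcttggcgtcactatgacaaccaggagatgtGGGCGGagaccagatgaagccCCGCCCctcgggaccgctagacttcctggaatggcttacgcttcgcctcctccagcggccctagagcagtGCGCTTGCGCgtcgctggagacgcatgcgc
Ndufb6: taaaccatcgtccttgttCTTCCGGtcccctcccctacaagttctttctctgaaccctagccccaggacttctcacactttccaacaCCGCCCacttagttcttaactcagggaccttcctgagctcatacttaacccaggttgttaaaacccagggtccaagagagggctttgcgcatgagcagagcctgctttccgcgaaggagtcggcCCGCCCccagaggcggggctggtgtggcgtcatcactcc
Ndufa4: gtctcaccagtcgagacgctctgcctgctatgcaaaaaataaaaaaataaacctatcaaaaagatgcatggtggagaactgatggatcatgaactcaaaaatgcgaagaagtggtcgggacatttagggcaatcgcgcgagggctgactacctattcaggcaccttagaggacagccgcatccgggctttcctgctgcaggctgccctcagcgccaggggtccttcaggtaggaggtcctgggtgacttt
The windows are, in the same order, chr2:90904722-90904971, chr2:36049339-36049588, chr4:40279422-40279671 and chr6:11907451-11907700, all on the minus strand of GRCm38.p6.

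Other genes of complex I, outside the 42, were mostly above the median gene as well. Of 15 such genes that were matched, 14 passed the filter and 13 of these lay above the median gene, with a relative median of 0.41. Of the 14, 2 were called higher (14.3%) and 0 lower, beside 10.3% and 11.6% of all kept loci. Tmem126a, an assembly factor, was at 25.5 and 116 FPKM (1.29 relative). Ndufaf8, the partner of Ndufaf5, was at 1.52 and 7.40 FPKM (0.88), and Lyrm2, a matrix protein linked to the NADH module, at 7.64 and 24.95 FPKM (0.73). Ndufaf6, another assembly factor, stayed under the filter at 0.25 and 0.61 FPKM.

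The remaining respiratory complexes gave the nearest comparison, with no test of the difference possible. Over 59 kept nuclear genes of complexes II to V the relative median was 0.03, with 30 above the median gene, 10 (16.9%) called higher and 3 lower, beside 0.30, 29 of 42 and 8 (19.0%) for complex I. By complex the medians were 0.02 over 6 genes of complex II, 0.67 over 13 of complex III, -0.18 over 24 of complex IV and 0.01 over 16 of complex V. Over 71 genes of mitochondrial ribosomal proteins the median was 0.50, with 20 (28.2%) called higher and 2 lower. The median of complex I was therefore between those of complexes II to V and of the mitochondrial ribosomal proteins on this scale. Removing or keeping the shift of the median locus moves these medians alike and has no bearing on their order.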

How the data were processed

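RNA sequencing values came from 2 libraries, 1 per genotype. The deposited files hold FPKM per transcript with bounds and coverage, under assembly IDs. The genome build mm9 and the tools TopHat2 2.0.5, Cufflinks 2.0.2 and Cuffdiff 2.0.2 come per the submitters' processing notes, which name no role or order. Annotation and filters: not given in the sources used here.

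Loci were named against GENCODE M21 by ordered intron and internal exon lengths on the same chromosome and strand, with no coordinate converted: 19061 of 25707 loci were named. On a wrong chromosome 0 of 36943 whole chains and 2 of 2883 single introns matched. FPKM was summed per locus. Kept were 10650 loci, 8540 of them named, with 1 FPKM or more in 1 library and no fewer than 300 nt in the longest transcript. The log2 fold used a pseudocount of 1 FPKM, which understates changes of low genes, and was centred on the median kept locus. Copies are annotated transcripts of other genes that match at least 80% of a coding sequence at 95% identity or more (blastn). Fragment counts are unknown, so no interval beyond the deposited bounds is given. The calculation of folds was run on simulated libraries with raised levels, known folds and no noise. That checks the arithmetic and not the folds reported here. The genes and lists were chosen with earlier results of these data known.

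Core subunits, assembly factors and the 6 highest and 6 lowest of the 42 genes are given with bounds, and from other lists up to 4 genes that reach 5 FPKM, by size of fold. Pparg is named as the target. Some genes that this rule selects are not reported here. Other genes are named where they serve as markers, or (Ndufaf6, Timm8b) after their values were seen. Ppargc1a, which did not pass the filter, is also named outside this rule. Python 3.11.15, numpy 2.4.6, scipy 1.17.1 and matplotlib 3.10.9 were used.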

Additional observations from a re-analysis of the deposited data

Results flagged for a closer look

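The membrane core of complex I is encoded by mitochondrial DNA, and signal from that chromosome lay outside the comparison of named genes. The single locus of chromosome M, from 17 to 16299 (mm9) with 1 exon, was at 3722.8 FPKM (bounds 3713 to 3733) in the deficient library and was listed at 0, with 0 coverage, in the floxed library. The locus spans the whole chromosome, so the mitochondrial complex I genes cannot be separated in it, and a 0 can be a failed estimate; no fold is given.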

How the results depend on the processing

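No paired analysis was possible because each group has 1 library, and for the same reason no replicate could be left out. The count of complex I genes at least 2-fold higher, 8 as reported, was 25 as deposited, 22 with TPM over kept loci, 5 with upper-quartile scaling, 5 with a pseudocount of 0.1 FPKM, 24 with no filter on low values, 5 with a filter of 5 FPKM, and 16 and 1 at thresholds of 1.5- and 4-fold. The count at least 2-fold lower, 4 as reported, was 0 as deposited, 0 with TPM, 7 and 2 with pseudocounts of 0.1 and 5 FPKM, 0 with no filter, 8 and 0 at 1.5- and 4-fold, and 2 where bounds must not overlap. The median of the 42, 0.30 as reported, was 1.16 as deposited, 1.04 with TPM, 0.079 with upper-quartile scaling, 0.029 and 0.61 with pseudocounts of 0.1 and 5 FPKM, 1.13 with no filter, 0.12 with 5 FPKM, 0.27 with the most abundant transcript, 0.23 with transcripts of at least 300 nt, and 0.28 without the 7 genes that have a near-identical copy, an alternative added after seeing the data. It kept its sign in each of these. The median of complexes II to V, 0.03 as reported, was 0.89 as deposited, 0.77 with TPM, 0.32 with a pseudocount of 5 FPKM, 0.74 with no filter and 0.0011 with the most abundant transcript. It turned negative with upper-quartile scaling (-0.12), a pseudocount of 0.1 FPKM (-0.17), a filter of 5 FPKM (-0.056), transcripts of at least 300 nt (-0.0068) and whole-chain names only (-0.088). The share of FPKM, 1.18% and 1.54%, was 1.15% and 1.46% with transcripts of at least 300 nt, 1.93% and 1.92% without the 100 most abundant loci of each library, and 0.85% and 1.36% without Ndufa4 (added after seeing the data). The cause of these changes was not tested.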

Other observations

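Of 12 kept genes of iron-sulfur cluster assembly, which supply complex I with its clusters, 9 lay above the median gene, where all kept loci split evenly by construction. Their relative median was 0.47, with 2 called higher (16.7%) and 0 lower, beside 10.3% and 11.6% of all kept loci. Hspa9, the mitochondrial chaperone of cluster transfer and import, was at 17.7 FPKM in the floxed and 73.6 FPKM in the deficient library (1.14), and Isca1 at 5.33 and 19.7 FPKM (0.85). Of 18 import genes 10 lay above the median gene (55.6%, near an even split), with a median of 0.18. Called higher were 4 (22.2%) and lower 0, beside the same 10.3% and 11.6% of all kept loci. Those 4 were Timm9 (7.97 and 40.5 FPKM, 1.35), Tomm22 (17.0 and 81.7 FPKM, 1.34), Timm13 (17.6 and 82.7 FPKM, 1.32) and Timm23 (19.2 and 85.7 FPKM, 1.24), while Timm8b, a related small import chaperone, was at 169.9 and 171 FPKM (-0.85).

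Of 15 regulators of mitochondrial biogenesis 9 passed the filter, with a relative median of 0.21. Among these 9, 0 were called higher or lower, where 10.3% and 11.6% of all kept loci were. Tfam, which packages mitochondrial DNA, was at 1.54 and 7.96 FPKM (0.96), Nrf1 at 4.85 and 12.1 FPKM (0.30), and Ppargc1a at 0.16 FPKM in the floxed library and listed at 0 in the deficient one. Of 11 genes of the outer membrane and other markers of mitochondrial mass 8 lay above the median gene, with a median of 0.77. Citrate synthase, Cs, was at 52.6 and 226 FPKM (1.22) and the chaperonin gene Hspe1 at 75.8 and 374 FPKM (1.43), while the channel gene Vdac3 was at 187.5 and 157 FPKM (-1.11).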
